A study of Mus musculus with 10 samples.

Results

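The nuclear-encoded genes of oxidative phosphorylation (OXPHOS), the mitochondrial pathway that makes ATP with oxygen, were compared between mouse colon tumours and the colon beside them. Members were the rows of the gene table whose symbol was Cyc1 or Sdha to Sdhd, or began with Ndufa, Ndufb, Ndufc, Ndufs, Ndufv, Uqcr, Atp5, or Cox and a digit from 4 to 8. The rule used symbols alone and found 94 of the 24525 genes in the table, among them 8 complex I assembly factors (Ndufaf genes) and a pair of loosely related genes, Atp5s and Atp5sl. The measurements were fragments per kilobase of transcript, scaled to the mapped fragments of a library (FPKM), a level per length, in 10 bulk poly(A) RNA-seq libraries, 5 of tumours and 5 of adjacent normal colon. All samples carry the same background: male C57BL/6 mice of 7 weeks (C57BL/6N in the growth protocol) that were given a single injection of azoxymethane (AOM), a colon carcinogen, at 12.5 mg/kg. AOM was followed by 3 cycles of dextran sulphate sodium (DSS), a polymer that inflames the colon, at 2% in the drinking water for 5 days and then plain water for 16 days, and tissue was labelled as 10 weeks after AOM. The adjacent tissue is therefore colon of AOM/DSS animals, and no library was labelled as coming from the 3 untreated mice of the study. The titles number both groups from 1 to 5 but the source label gives the same mouse throughout, so which libraries share an animal is not settled. Nothing says that the samples of a group came from separate animals, so p-values reflect only how much these samples varied, and that variation may be technical.

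OXPHOS works as a relay in the inner mitochondrial membrane. Complex I (NADH dehydrogenase) and complex II (succinate dehydrogenase, which is also an enzyme of the tricarboxylic acid cycle) hand electrons to ubiquinone, complex III passes them to cytochrome c, and complex IV (cytochrome c oxidase) gives them to oxygen. Complexes I, III and IV pump protons across the membrane as they do so, and complex V, the ATP synthase, lets them back to make ATP. In the colon the absorptive cells at the surface are known for burning butyrate from bacterial fermentation through this chain. Subunits encoded by mitochondrial DNA were not analysed here.

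Transcripts of the OXPHOS complexes were mostly lower in the tumours, in all 5 complexes. Of the subunits, Ndufa4 and the low isoforms Ndufa4l2 and Cox6b2, all of complex IV, were higher. In the test described below, 7 subunits of complex I and 1 of complex V were called neither higher nor lower. The members made up 3.95, 3.77, 3.84, 4.15 and 3.69% of all FPKM in adjacent samples 1 to 5 and 2.98, 2.74, 2.74, 3.00 and 2.61% in tumours 1 to 5. Every tumour lay below every adjacent sample, and the group means were 3.88 ± 0.179% and 2.82 ± 0.170% (SD, n = 5 each). Summed over the subunits of a complex, the tumour mean was 62.4% of the adjacent mean for complex IV, 66.0% for complex II, 67.5% for complex III, 75.3% for complex I and 77.0% for complex V, an order that was not tested. In bulk tissue, fewer cells of a type that is rich in these transcripts and less of them per cell cannot be told apart.

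Of the 94 members, 89 averaged 1 FPKM or more over the 10 libraries and were tested. The other 5 were Cox4i2, Cox6a2 and Cox8b, tissue-restricted isoforms at low levels, and Cox7b2 and Cox8c, which were listed at 0 in all libraries. With limma on log2(FPKM + 1) and Benjamini-Hochberg adjustment over all 13016 genes that passed the filter (adjusted p under 0.05), 69 members fell, 6 rose and 14 did not pass. The same test called 19.3% of all tested genes lower and 57.2% higher in tumours, against 77.5% and 6.74% of the members. The median difference, tumour minus adjacent, was -0.42 for the members and 0.35 for all tested genes on this log2 scale, which is used for every difference below. The shift of all genes is removed by construction when each library's median is subtracted, and its cause was not tested. On that scale the median of all tested genes was 0.02, 33.3% were lower and 34.5% higher, and 79 members fell, 3 rose (Cox6b2, Ndufa4 and Ndufa4l2) and the median of members was -0.75. Under quantile normalization 68 members fell and 2 rose, Cox6b2 and Ndufa4. In 59 members every tumour lay below every adjacent sample, which held for 14.3% of all tested genes, and in 5 every tumour lay above, which held for 46.5%.

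**Figure D1:**
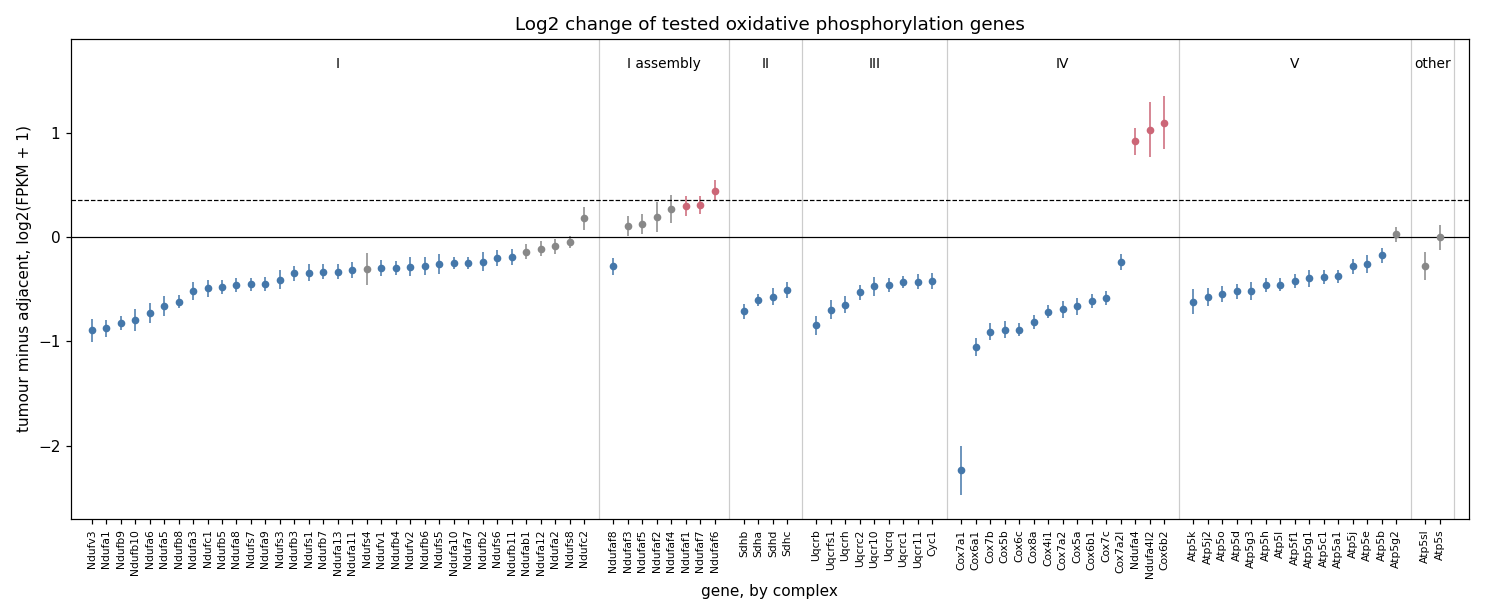
Log2 difference in FPKM + 1 (tumour minus adjacent, vertical axis) of 88 of the 89 tested members, grouped by complex along the horizontal axis; bars are standard errors, blue marks genes that fell, red genes that rose and grey genes that did not pass, and the dashed line is the median of all tested genes (0.35). Most points lie between -1.05 and -0.17, while Ndufa4, Ndufa4l2 and Cox6b2 of complex IV lie at 0.92 to 1.10 and Cox7a1 lies at -2.23.

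The members differ from the rest of the table in level and length, so the share was also read among genes like them. Their median level was 127 FPKM against 12.1 for all tested genes, and the median length of their annotated transcripts was 612.5 against 1405 bases. Among the 1741 genes that averaged 50 FPKM or more, 36.5% fell, against 64 of 72 members. Among the 4729 tested genes with a median transcript of at most 1000 bases, 18.7% fell, against 62 of 78 members. Both subsets were chosen after the values had been seen.

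RNA of cell type markers differed between the groups, which in bulk tissue does not measure cell numbers. The 6 epithelial markers (Epcam, Krt8, Krt18, Krt19, Cdh1, Cldn7) were high in all libraries and summed to between 6846 and 8403 FPKM in adjacent tissue and between 3871 and 5977 FPKM in tumours; 5 of them fell, by between 0.31 (Epcam) and 1.07 (Krt8), and Krt18 rose by 0.36, which became 0.03 with medians subtracted. The 6 surface colonocyte markers (Car4, Slc26a3, Aqp8, Car1, Krt20, Slc9a3) summed to 2152 to 3391 FPKM and 143 to 798 FPKM, with 5 lower and Slc9a3 not past the threshold. Fibroblast markers summed to 74.4 to 191 FPKM and 571 to 964 FPKM (6 of 6 rose), endothelial markers to 9.78 to 21.2 and 36.4 to 55.6 FPKM (5 of 5 rose), pericyte markers to 11.4 to 26.8 and 57.3 to 78.6 FPKM (6 of 6 tested rose), smooth muscle markers to 24.6 to 68.4 and 61.6 to 98.4 FPKM (3 of 6 rose) and haematopoietic markers to 44.5 to 131 and 138 to 285 FPKM (4 of 5 rose). Of all tested genes, 57.2% rose and 19.3% fell. With medians subtracted 34.5% of all tested genes rose. On that scale 6 fibroblast, 4 endothelial, 6 pericyte, 2 smooth muscle and 3 haematopoietic markers rose. The part of these marker shifts in the OXPHOS result was not tested. Tumours 2 and 4 kept the most of the surface colonocyte sum (798 and 426 FPKM against 143 to 256 FPKM in the others), and without them 67 members fell, 6 rose and the median was -0.46.

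Many of the genes moved in the same direction, and their promoters are shown here for that reason. Windows from 250 bases before to 50 bases after the annotated start, from RefSeq on GRCm38.p6, were matched for 77 members (83 windows). Nuclear respiratory factor 1 (NRF-1), the ETS-family factor GABP (NRF-2) and YY1 are the textbook regulators of nuclear OXPHOS genes. The letters GCGCATGC, a core of the NRF-1 motif, were found on either strand in 14.5% of the member windows and in 2.71% of all 32851 windows. An ETS core, CCGGAAG, was in 21.7% and 8.86%, and a YY1 core, AAGATGGC, in 15.7% and 2.75%, with a median GC content of 58.3% and 52.7%. No site is inferred from such a match. The first 200 bases of 6 windows are printed 5′ to 3′ on the gene's strand, with matches in capitals: Ndufa6 and Uqcr11 as subunits of complexes I and III that fell, Cox6a1 and Atp5l as subunits of complexes IV and V that fell, and Ndufa4 and Cox7a1 as the abundant riser and the member with the largest fall. Their positions are chr15:82354342-82354541 (minus strand), chr10:80406872-80407071 (minus), chr5:115349009-115349208 (minus), chr9:44920793-44920992 (minus), chr6:11907501-11907700 (minus) and chr7:30183921-30184120 (plus).
Ndufa6: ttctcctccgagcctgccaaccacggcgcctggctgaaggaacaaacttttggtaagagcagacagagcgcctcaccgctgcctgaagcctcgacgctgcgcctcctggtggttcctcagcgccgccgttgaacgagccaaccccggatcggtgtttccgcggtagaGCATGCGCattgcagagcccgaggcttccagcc
Uqcr11: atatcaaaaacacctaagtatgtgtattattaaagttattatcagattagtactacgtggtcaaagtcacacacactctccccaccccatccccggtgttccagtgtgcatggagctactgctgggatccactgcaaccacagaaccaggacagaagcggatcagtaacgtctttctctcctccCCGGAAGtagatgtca
Cox6a1: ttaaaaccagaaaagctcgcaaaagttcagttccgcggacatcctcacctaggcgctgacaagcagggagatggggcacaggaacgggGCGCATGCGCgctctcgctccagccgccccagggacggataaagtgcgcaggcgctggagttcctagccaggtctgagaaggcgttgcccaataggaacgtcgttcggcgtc
Atp5l: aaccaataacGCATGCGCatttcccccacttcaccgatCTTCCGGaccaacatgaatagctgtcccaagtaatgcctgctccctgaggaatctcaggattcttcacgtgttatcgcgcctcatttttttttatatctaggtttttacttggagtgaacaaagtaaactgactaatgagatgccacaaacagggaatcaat
Ndufa4: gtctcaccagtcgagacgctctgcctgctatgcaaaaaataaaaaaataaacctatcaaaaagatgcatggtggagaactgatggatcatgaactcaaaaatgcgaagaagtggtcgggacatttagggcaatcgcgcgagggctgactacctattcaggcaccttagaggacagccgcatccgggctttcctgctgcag
Cox7a1: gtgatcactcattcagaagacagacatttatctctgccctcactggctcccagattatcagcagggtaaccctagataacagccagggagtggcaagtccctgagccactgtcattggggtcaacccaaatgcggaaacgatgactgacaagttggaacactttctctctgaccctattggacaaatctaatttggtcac

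The capitals mark an NRF-1 core in Ndufa6, an ETS core in Uqcr11, NRF-1 cores on both strands that overlap each other in Cox6a1, and an NRF-1 and then an ETS core in Atp5l. In the part of the windows that is not printed, Uqcr11 also held an NRF-1 core, Cox6a1 an ETS core and Atp5l a further ETS core. Ndufa4 and Cox7a1 held none of the 3 motifs in the whole window, which says only that these letters are not there. Apart from Cox7a1, the printed genes that fell all held a match, and they do not stand for the set. Ndufv3, Ndufa1, Cox7b and Uqcrfs1 fell with none of the motifs in their windows. Atp5g2 held an NRF-1 core, and Ndufs8 and Ndufaf1 an ETS core, and these genes did not fall on the deposited scale. A link between motif and change was not tested.

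Complex I, the entry point for NADH, had 36 subunits in the table, of which 29 fell and 7 did not pass, with a median of -0.32 (-0.65 with medians subtracted, where 35 fell). The core subunits between them carry the flavin and iron-sulphur clusters. Ndufs1, the largest core subunit, was at 52.7, 48.8, 52.8, 57.2 and 44.5 FPKM in adjacent samples 1 to 5 and at 44.6, 40.1, 40.2, 39.9 and 36.1 FPKM in tumours 1 to 5. Its groups met only where tumour 1 edged above adjacent 5, and it fell (log2 difference -0.34, SE 0.08, adjusted p = 0.00264). Ndufv1, which binds NADH, was at 93.4, 85.1, 86.9, 101 and 93.1 FPKM and 83.4, 66.9, 73.5, 77.8 and 71.2 FPKM. All tumours lay below all adjacent samples (log2 difference -0.30, SE 0.08, adjusted p = 0.004). Ndufv2, Ndufs3 and Ndufs7 of the core also fell, by 0.28 to 0.45. Ndufs8, an iron-sulphur subunit of the ubiquinone-reducing arm, was near level, with means of 92.9 ± 5.07 and 89.9 ± 3.13 FPKM (log2 difference -0.05, SE 0.06, adjusted p = 0.486), and passed as lower with medians subtracted (-0.38).

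The 29 accessory subunits, which surround and stabilise the core, spanned -0.89 to 0.18: 24 fell, with a median of -0.33 against -0.30 for the core. Ndufv3, a small subunit beside the NADH-binding module, had the largest fall of the complex, at 141, 138, 132, 146 and 129 FPKM in adjacent samples and 65.1, 78.7, 60.5, 93.4 and 73.1 FPKM in tumours (chr17:31520115-31531331, plus strand). The highest tumour, number 4, was still well below the lowest adjacent sample (log2 difference -0.89, SE 0.11, adjusted p = 4.56e-05). Ndufa1, an X-linked membrane subunit needed for assembly, was at 178, 173, 186, 198 and 196 FPKM and 104, 98.2, 98.3, 116 and 89.3 FPKM (log2 difference -0.88, SE 0.08, adjusted p = 1.7e-05). Ndufb9, a subunit of the distal membrane arm and the most abundant of the complex in adjacent tissue, was at 283, 281, 281, 303 and 266 FPKM and 161, 153, 151, 182 and 151 FPKM (log2 difference -0.82, SE 0.07, adjusted p = 1.48e-05). Neither gene had a tumour that reached the lowest adjacent sample. Ndufa6, whose promoter is printed above and which helps bind the acyl carrier protein, was at 254, 295, 272, 302 and 261 FPKM and 169, 146, 159, 203 and 161 FPKM, again without overlap (log2 difference -0.73, SE 0.09, adjusted p = 6.13e-05). Other accessory subunits with falls of over 0.45 were Ndufb10 (-0.79), Ndufa5 (-0.66), Ndufb8 (-0.62), Ndufa3 (-0.52), Ndufc1 (-0.49), Ndufb5 (-0.48) and Ndufa8 (-0.46). The 5 that did not pass were Ndufs4 (-0.30), Ndufab1 (-0.14), the acyl carrier protein, Ndufa12 (-0.11), Ndufa2 (-0.09) and Ndufc2 (0.18). Ndufc2 was the only complex I subunit with a higher tumour mean and the only one that did not pass as lower with medians subtracted.

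The Ndufaf genes, which build complex I but are not part of it, moved little and in both directions. On the deposited scale 3 of 8 rose, 1 fell and the median was 0.23, but with medians subtracted 2 fell (Ndufaf3 and Ndufaf8), 6 did not pass and the median was -0.10, and under quantile normalization it was -0.12. Ndufaf6 was at 3.59, 2.81, 3.45, 4.06 and 3.84 FPKM in adjacent samples and 5.4, 5.78, 4.77, 5.52 and 4.44 FPKM in tumours (log2 difference 0.44, SE 0.10, adjusted p = 0.00229; 0.11, adjusted p = 0.339, with medians subtracted). Ndufaf7, a mitochondrial methyltransferase, was at 8.39, 7.19, 9.06, 8.53 and 8.67 FPKM and 11.8, 9.16, 10.9, 10.3 and 10.8 FPKM (log2 difference 0.31, SE 0.08, adjusted p = 0.00572; -0.02 with medians subtracted). Both had every tumour above every adjacent sample in FPKM. Ndufaf1, a factor of the membrane arm, was at 7.64, 5.62, 6.82, 6.41 and 5.56 FPKM and 7.91, 7.08, 7.9, 8.63 and 8.91 FPKM with overlapping groups (log2 difference 0.30, SE 0.10, adjusted p = 0.0151; -0.03 with medians subtracted). Ndufaf8, which works with Ndufaf5, fell under each scaling tried, from 31.5, 27.7, 35, 32.9 and 32 FPKM to 27.1, 28.5, 25.1, 26.4 and 23 FPKM (log2 difference -0.28, SE 0.08, adjusted p = 0.00698). The levels of all 8 factors, at most 31.8 FPKM on average in adjacent tissue, were below or within the lower end of those of the subunits, which began at 24.2 FPKM (Ndufa11).

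Complex II, the smallest complex and the only one with no mitochondrially encoded subunit, fell as a whole, with 4 of 4 genes lower, no overlap between groups and a median of -0.59 (-0.92 with medians subtracted). Sdha, the flavoprotein that oxidises succinate, was at 145, 135, 143, 150.4 and 141 FPKM in adjacent samples and 95.4, 99, 88.4, 98 and 88.2 FPKM in tumours (log2 difference -0.60, SE 0.06, adjusted p = 2.17e-05). Sdhb, the iron-sulphur subunit (chr4:140961203-140979193, plus strand), was at 162, 155, 151, 169 and 143 FPKM and 99.3, 98.4, 90.7, 103 and 83.2 FPKM (log2 difference -0.71, SE 0.07, adjusted p = 2.55e-05). The tumours of both genes sat in a narrow band below the lowest adjacent sample. Sdhd, a membrane anchor, was at 215, 198, 228, 226 and 197 FPKM and 160.0, 148, 132, 149 and 126 FPKM (log2 difference -0.57, SE 0.08, adjusted p = 0.000109), and Sdhc, the other anchor, had means of 149 ± 11.7 and 104 ± 8.48 FPKM (-0.51). The 4 genes lay within 143 to 213 FPKM in adjacent tissue and 93.8 to 143 FPKM in tumours, on a scale per length.

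Complex III fell as a whole too: 9 of 9 genes were lower with no overlap between groups, and the median was -0.47 (-0.80 with medians subtracted). Uqcrb, a small subunit that binds near the ubiquinone site, fell most, from 352, 327, 337, 359.8 and 285 FPKM in adjacent samples to 187, 188, 176, 213 and 158 FPKM in tumours (log2 difference -0.84, SE 0.09, adjusted p = 2.88e-05; chr13:66900617-66905378, minus strand). Uqcrfs1, the Rieske iron-sulphur protein, was at 173, 159.5, 164, 196 and 145 FPKM and 105, 107, 94.3, 112 and 96.1 FPKM (log2 difference -0.69, SE 0.09, adjusted p = 5.53e-05). Uqcrh, the hinge protein and the most abundant gene of the complex, was at 464, 425, 488, 482 and 399 FPKM and 308, 273, 272, 319 and 266 FPKM (log2 difference -0.65, SE 0.08, adjusted p = 5.72e-05). In these genes adjacent 5 was the lowest adjacent sample and tumour 4 the highest tumour. Cyc1, cytochrome c1, had the smallest difference of the complex, at 234, 214, 224, 262 and 212 FPKM and 186, 169, 167, 182 and 152 FPKM (log2 difference -0.42, SE 0.08, adjusted p = 0.000706). Between these were the core proteins Uqcrc1 (-0.43) and Uqcrc2 (-0.53) and the small subunits Uqcr10 (-0.47), Uqcrq (-0.46) and Uqcr11 (-0.43), the last with its ETS core printed above.

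Complex IV, which hands electrons to oxygen, held both the largest falls and the clearest rises: 12 of the 15 tested genes fell, 3 rose, and the median was -0.69 (-1.03 with medians subtracted). Cox6a1, the widely expressed isoform of subunit 6A and the most abundant member in adjacent tissue, was at 942, 929, 874, 1055 and 1024 FPKM in adjacent samples and 447, 502, 423, 532 and 422 FPKM in tumours (chr5:115345642-115348981, minus strand). Its adjacent mean of 965 ± 73.5 FPKM (SD, n = 5) was 2.07 times the tumour mean of 465 ± 49.7 FPKM (SD, n = 5), with no overlap (log2 difference -1.05, SE 0.09, adjusted p = 1.4e-05). Cox7b, an X-linked structural subunit, was at 209.9, 194, 195, 218 and 179.8 FPKM and 101, 117, 95.4, 119 and 98 FPKM (log2 difference -0.91, SE 0.09, adjusted p = 1.92e-05). Cox5a, a matrix-side subunit, was at 471, 447, 443, 489.9 and 413 FPKM and 283, 301, 271, 323 and 251 FPKM (log2 difference -0.67, SE 0.08, adjusted p = 4.66e-05). Cox4i1, the main isoform of the regulatory subunit 4, was at 661, 657, 649, 705 and 626 FPKM and 402, 399.6, 378, 427 and 402 FPKM (log2 difference -0.71, SE 0.06, adjusted p = 1.4e-05). In each of these genes the 5 tumours were tightly grouped and far below the adjacent samples. Cox5b (-0.89), Cox6c (-0.89), Cox8a (-0.82), Cox7a2 (-0.69), Cox6b1 (-0.61) and Cox7c (-0.59) fell without overlap as well. Cox7a2l differed least (log2 difference -0.24, SE 0.08, adjusted p = 0.017) and did not pass under quantile normalization.

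Cox7a1, the heart and muscle isoform of subunit 7A (chr7:30184144-30186078, plus strand), had the largest fall of all members. It was at 71.6, 71.9, 62.1, 78.2 and 65.2 FPKM in adjacent samples 1 to 5 and at 11.5, 14.8, 9.43, 28.1 and 11.7 FPKM in tumours 1 to 5. Tumour 4 was the highest tumour by a wide margin and was still below all adjacent samples. The adjacent mean of 69.8 ± 6.29 FPKM was 4.62 times the tumour mean of 15.1 ± 7.5 FPKM (SD, n = 5 each; log2 difference -2.23, SE 0.23, adjusted p = 2.76e-05), and the difference was -2.58 without tumours 2 and 4. Of 6 smooth muscle markers 3 rose (Actg2, Smtn and Mylk) and 3 did not pass (Myh11, Des and Cnn1), and 2 rose with medians subtracted; summed, they were at 24.6 to 68.4 FPKM in adjacent tissue and 61.6 to 98.4 FPKM in tumours, with some overlap. Of the 6 skeletal muscle markers 5 were below the filter, and Myh1 was at 0. Their sum was 3.84 to 8.57 FPKM in adjacent tissue and 1.14 to 6.68 FPKM in tumours. Acta1, the marker that was tested, did not pass on the deposited scale (-0.58, limma adjusted p = 0.15). It fell with medians subtracted (-0.92, adjusted p = 0.0481) and under quantile normalization (-1.01, adjusted p = 0.0229). The part of muscle in the Cox7a1 result was not tested.

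Ndufa4, long counted with complex I and now placed in complex IV, was the only abundant member that rose (chr6:11900292-11907497, minus strand). It was at 233, 166, 212, 173 and 177 FPKM in adjacent samples and at 420.0, 280.2, 408, 365 and 351 FPKM in tumours. The lowest tumour, number 2, lay above the highest adjacent sample, number 1. The means were 192 ± 29 and 365 ± 55.4 FPKM (SD, n = 5 each), a ratio of 1.9 (log2 difference 0.92, SE 0.13, adjusted p = 0.000107), and the rise passed with medians subtracted (0.59, adjusted p = 0.000759) and under quantile normalization (1.08). In adjacent tissue it stood far below Cox4i1 of the same complex (659 ± 28.7 FPKM), and in tumours 1 and 3 it stood above it. Its isoform Ndufa4l2, known to be induced by low oxygen, was at 0.73, 0.87, 1.03, 0.45 and 1.86 FPKM and 2.32, 2.54, 2.28, 2.27 and 6.7 FPKM. It passed the filter of 1 FPKM only through the tumours (mean 3.22 FPKM), as its adjacent mean was 0.988 FPKM. A part of low oxygen or of cell types in its rise was not tested. Tumour 5 stood apart from the other tumours, and the groups did not overlap (log2 difference 1.03, SE 0.26, adjusted p = 0.0042; 0.70, adjusted p = 0.0317, with medians subtracted, and 0.59, adjusted p = 0.0627, under quantile normalization). Cox6b2, the testis isoform of subunit 6B, was at 4.44, 1.39, 2.86, 1.3 and 3.39 FPKM and 4.53, 5.29, 7.5, 7.86 and 7.68 FPKM (log2 difference 1.10, SE 0.25, adjusted p = 0.00239; 0.77, adjusted p = 0.0119, with medians subtracted). Its lowest tumour and highest adjacent sample, both numbered 1, almost touched, and the 5 germ cell markers summed to at most 0.30 FPKM in any library.

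**Figure D2:**
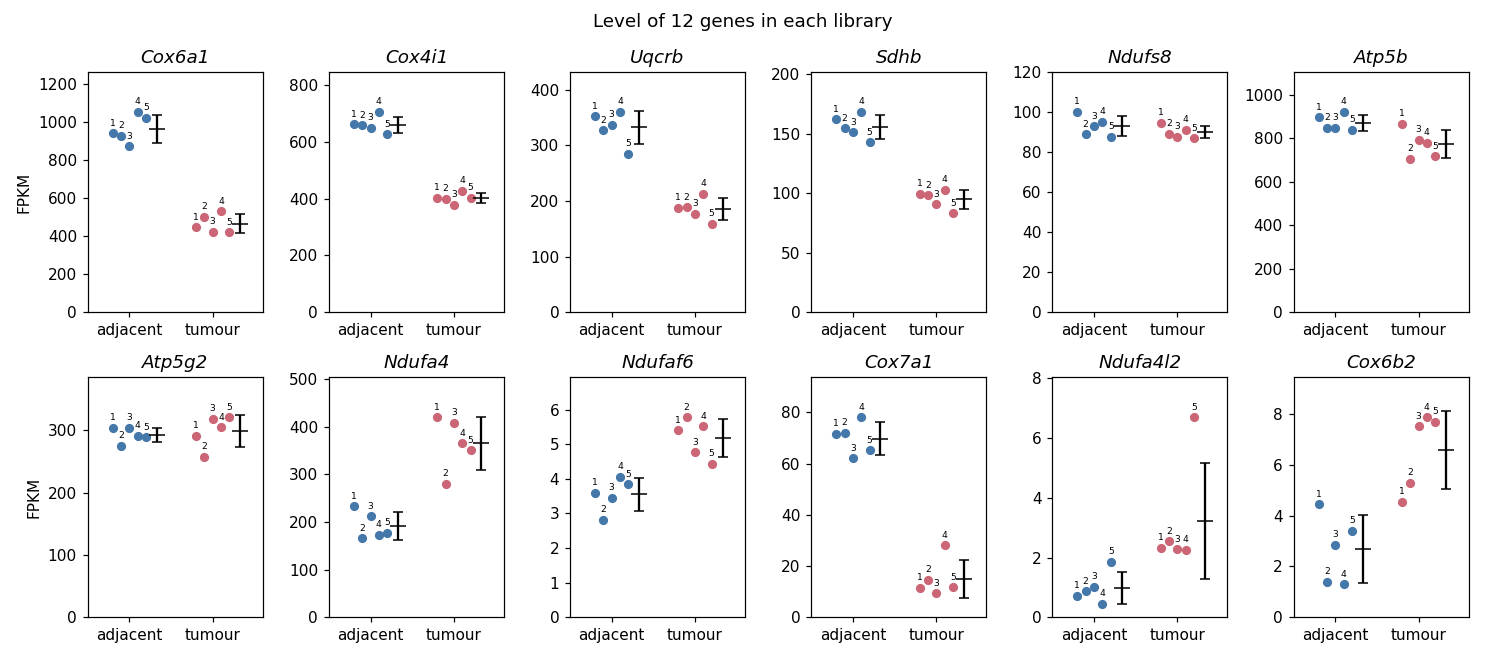
FPKM (vertical axes, from 0 and on a scale of their own for each gene) of 12 OXPHOS members in the 5 adjacent (blue) and 5 tumour (red) libraries, which are numbered as in the labels; bars are the mean and SD of a group. Cox6a1, Cox4i1, Uqcrb and Sdhb show separate groups with tumours below, Ndufs8 and Atp5g2 overlap, Ndufa4 shows tumours above, and Cox7a1 drops from between 62.1 and 78.2 FPKM to between 9.43 and 28.1 FPKM.

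Complex V, the ATP synthase, fell in 14 of 15 genes with a median of -0.42 (-0.75 with medians subtracted, where 15 of 15 fell), but under quantile normalization 11 fell. Atp5k, subunit e of the membrane part that helps synthases pair up, fell most, from 440.0, 358, 404, 446 and 316 FPKM in adjacent samples to 253, 253, 245, 309 and 214 FPKM in tumours (log2 difference -0.62, SE 0.12, adjusted p = 0.000751). Atp5j2, subunit f, was at 370.4, 326, 352, 401 and 334 FPKM and 261, 237, 228, 265 and 209.5 FPKM (log2 difference -0.57, SE 0.09, adjusted p = 0.000153). Atp5o, the oligomycin sensitivity conferral protein of the stalk, was at 347, 314, 327, 354 and 313 FPKM and 247, 221, 215, 248 and 202 FPKM (log2 difference -0.55, SE 0.08, adjusted p = 8.96e-05). All 3 had separate groups, although adjacent 5 and tumour 4 of Atp5k came close. Atp5b, the catalytic β subunit and the most abundant gene of the complex, was at 895, 847, 847, 920.1 and 838 FPKM and 866, 706, 793, 778 and 716 FPKM. Its groups overlapped through tumour 1, and the difference was small (log2 difference -0.17, SE 0.07, adjusted p = 0.0429). That call was lost in 9 of the 10 fits that left out a library, in all but the one without tumour 1 (adjusted p from 0.0524 to 0.102), and under quantile normalization (-0.12, adjusted p = 0.192). Atp5a1, the α subunit that alternates with β in the catalytic head, fell by more, from a mean of 559 ± 30.3 to 430.4 ± 21.4 FPKM (log2 difference -0.38, SE 0.06, adjusted p = 0.000289). The other subunits of the head, the stalks and the membrane part fell as well, with Atp5d at -0.52, Atp5h at -0.46, Atp5l at -0.45, Atp5f1 at -0.42, Atp5c1 at -0.38, Atp5j at -0.28 and Atp5e at -0.26. Atp5s and Atp5sl, whose symbols place them in the set but which are not synthase subunits, did not pass (Atp5s adjusted p = 0.999, Atp5sl -0.28, adjusted p = 0.0759). Both fell with medians subtracted (Atp5s -0.33, adjusted p = 0.0227; Atp5sl -0.61, adjusted p = 0.00102) and under quantile normalization (-0.47 and -0.50). Leaving out tumour 1, Atp5sl passed (-0.36, adjusted p = 0.0233), leaving out tumour 2 it was at -0.15, and a block for the replicate number also let it pass (adjusted p = 0.0468).

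Subunit c, whose ring turns in the membrane, is encoded by 3 genes, Atp5g1, Atp5g2 and Atp5g3, that give the same mature protein, and they did not move alike. Atp5g3, the most abundant, was at 649, 607, 627, 673 and 609.5 FPKM in adjacent samples and 505, 424, 427, 484 and 382 FPKM in tumours (log2 difference -0.52, SE 0.08, adjusted p = 0.000222). Atp5g1 was at 262, 218, 230.1, 271 and 214 FPKM and 184, 176, 173, 199 and 172 FPKM (log2 difference -0.40, SE 0.08, adjusted p = 0.00126). Both had every tumour below every adjacent sample. Atp5g2 was at 304, 276, 304, 292 and 289 FPKM and 292, 258, 319, 305 and 321 FPKM, with groups that overlapped (log2 difference 0.03, SE 0.07, adjusted p = 0.753; -0.30, adjusted p = 0.00121, with medians subtracted). Within each library the Atp5g2 level was 43.4 to 48.5% of that of Atp5g3 in adjacent tissue and 57.8 to 84.2% in tumours. The log2 ratio Atp5g2/Atp5g3 was higher in tumours by 0.54 (exact two-sided permutation test over the libraries, p = 0.00794, the smallest it can give, and 0.0127 after Benjamini-Hochberg adjustment over 8 ratios). Atp5g1/Atp5g3 differed by 0.12 (exact permutation p = 0.0556, adjusted 0.0741).

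In a ratio of 2 genes within a library the scaling between libraries cancels for abundant genes, but not for genes near or below 1 FPKM once 1 is added, and 8 pairs of isoforms were compared on log2 of FPKM + 1. Cox7a1/Cox7a2 was lower in tumours by 1.54: Cox7a1 had 29.9 to 34.4% of the Cox7a2 level in adjacent tissue and 7.91 to 18.8% in tumours. Cox6b2/Cox6b1 was higher by 1.71, although Cox6b2 had at most 2.21% of the Cox6b1 level in any library. Cox4i2, the isoform of subunit 4 known from lung and from low oxygen, was at 0.43, 0.78, 0.73, 0.24 and 0.95 FPKM and 0.48, 1.48, 1.2, 1.35 and 1.39 FPKM, and Cox4i2/Cox4i1 was higher by 1.13. Cox4i1 itself fell by 0.71, so most of this difference rests on Cox4i1. Tumour 1 alone of the tumours lay within the adjacent range of Cox4i2, and with nothing added its Cox4i2 level was 0.119% of Cox4i1, against 0.0341 to 0.152% in adjacent tissue and 0.316 to 0.370% in the other tumours. Cox6a2, a muscle isoform, was at 0.28, 0, 0.29, 0.07 and 0.06 FPKM and 0.13, 0.41, 0.26, 0.21 and 0.07 FPKM, so the difference of 1.15 in Cox6a2/Cox6a1 rests on Cox6a1, and with nothing added the shares overlapped (0 to 0.0332% and 0.0166 to 0.0816%). These 4 ratios had the same exact permutation p = 0.00794 (adjusted 0.0127) as Atp5g2/Atp5g3, with no overlap between the groups on the log2(FPKM + 1) scale. Cox8b, another muscle isoform, was at 1.12, 0.43, 1.39, 0.14 and 0.61 FPKM and 0.13, 0, 0.13, 0.43 and 0.14 FPKM, and Cox8b/Cox8a did not pass (0.28, exact permutation p = 0.270, adjusted 0.308; its sign turned with a pseudocount of 0.1). Ndufa4l2/Ndufa4 did not pass either (0.11, exact permutation p = 0.746); both genes were higher in tumours.

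Some libraries were often the highest or lowest of their group over the members. No such count was made over all tested genes, so a trait of the members cannot be told from one of the library. Adjacent 4 was the highest adjacent sample for 55 of the 89 tested members and adjacent 5 the lowest for 41, adjacent 2 for 33. Of the adjacent samples, adjacent 4 also had the highest epithelial and surface colonocyte marker sums (8403 and 3391 FPKM) and the lowest fibroblast sum (74.4 FPKM). Tumour 4 was the highest tumour for 49 members and tumour 1 for 26, and tumour 5 was the lowest for 40 and tumour 2 for 25. Expressed as the mean log2 level of a complex minus its adjacent mean, complex I ranged from -0.08 to 0.09 in adjacent samples and from -0.45 (tumour 3) to -0.23 (tumour 4) in tumours. Complex IV ranged from -0.07 to 0.06 and from -0.57 to -0.32, and complex II from -0.09 to 0.10 and from -0.74 (tumour 5) to -0.51 (tumour 4). The assembly factors ranged from -0.20 to 0.11 and from 0.10 to 0.30. The median coefficient of variation of the members within a group was 6.75% in adjacent tissue and 8.46% in tumours, against 12.7% and 14.4% for all tested genes. The members were also at a higher median level (127 against 12.1 FPKM), and the spread was not compared among genes of like level.

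**Figure D3:**
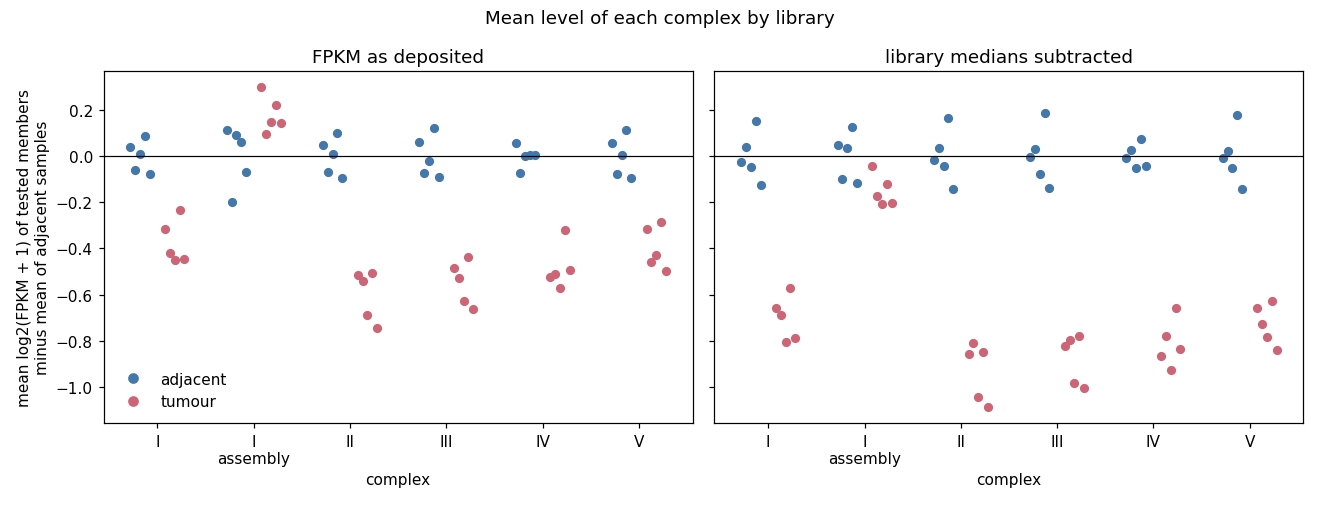
Mean log2(FPKM + 1) of the tested members of each complex in each library minus the mean of the adjacent samples (vertical axis), on the deposited scale (left) and with library medians subtracted (right); a point is a library, adjacent in blue and tumour in red. For complexes I to V all 5 tumours lie below all 5 adjacent samples on both scales, while the assembly factors lie at 0.10 to 0.30 in tumours on the left and at -0.21 to -0.04 on the right.

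The machinery around the complexes was read from lists of genes that are not members, with earlier results of these data known. Mobile carriers and other entry points followed the complexes in part, with 11 of 20 lower and 6 higher (median -0.35; 14 lower and 3 higher with medians subtracted). Cycs, cytochrome c, fell (95 ± 12.9 to 64 ± 9.57 FPKM, -0.56), Sqrdl, which feeds electrons from hydrogen sulphide, fell most (265 ± 30.6 to 89.5 ± 34.6 FPKM, -1.63), and Coq8a of ubiquinone synthesis followed (-1.34). Prodh, proline dehydrogenase (1.14), and Dhodh of pyrimidine synthesis (0.71) rose, and also did so with medians subtracted (0.81 and 0.37). Of the carriers that exchange ATP, ADP and phosphate, 5 of 6 fell and 1 rose. Slc25a5, an adenine nucleotide translocase, fell from 915, 929, 874, 1016 and 939 FPKM to 583, 545, 516, 573 and 489.6 FPKM (log2 difference -0.79, SE 0.07, adjusted p = 1.71e-05). Its isoform Slc25a4, which predominates in heart and muscle, rose from 29, 19.2, 29.9, 18.5 and 32.5 FPKM to 147, 72.6, 142, 145 and 140.4 FPKM (log2 difference 2.27, SE 0.23, adjusted p = 2.35e-05), with tumour 2 the lowest tumour and still above the adjacent range. Of the tricarboxylic acid cycle, which supplies the electrons, 8 of 14 genes were lower and 2 higher (median -0.26; with medians subtracted 12 fell and 2 did not pass), led by Suclg2 (-1.04) and citrate synthase, Cs (-0.90), and with Idh2 (0.69) and Idh3a (0.48) higher, which did not pass with medians subtracted. Among supercomplex and cristae genes 4 of 11 fell and 3 rose (median -0.01; 8 fell and 1 rose, median -0.34, with medians subtracted, and 7 fell and 3 rose under quantile normalization), with Higd1a (-1.50) and Chchd3 (-0.62) lowest and Chchd6 (1.14) highest.

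Assembly factors of the other complexes were mixed. Their counts stand beside 57.2% higher and 19.3% lower over all tested genes, and 34.5% and 33.3% with medians subtracted. All 4 factors of complex II rose (median 0.45), while its 4 subunits fell, but with medians subtracted only Sdhaf1 did (0.82, and 0.49 with medians subtracted). Of complex I factors outside the symbol rule 3 of 7 rose and 4 did not pass (median 0.07), while with medians subtracted 4 fell and 3 did not pass. Complex III had 1 of 6 higher (Uqcc2, 0.34) and 2 lower (Lyrm7, -0.31, and Uqcc1, -0.19; median 0.14), while with medians subtracted 3 fell, 3 did not pass and the median was -0.19 (Uqcc2 0.01). Complex V had 2 of 4 higher (Atpaf1, 0.35, and Tmem70, 0.27) and 2 that did not pass, while with medians subtracted 2 fell and 2 did not pass; the inhibitor Atpif1 was at -0.15 and fell on the latter scale (-0.48, adjusted p = 0.000649). Complex IV had 9 of 19 lower and 4 higher (14 and 1 with medians subtracted), from Sco1, a copper chaperone (-0.74), and Cox14 (-0.51) to Sco2 (0.48) and Cox18 (0.52). Regulators of transcription and of mitochondrial DNA had 11 of 17 higher, close to the share of all tested genes, and 3 lower (median 0.42; 4 and 3 with medians subtracted). Those that fell were Ppargc1b, a coactivator of mitochondrial genes, from 10.9, 9, 9.82, 13.2 and 11.4 FPKM to 2.21, 3.11, 1.7, 2.4 and 1.3 FPKM (log2 difference -1.93, SE 0.16, adjusted p = 1.4e-05), the nuclear receptor Esrra, from 75.6, 82.9, 84.4, 94.8 and 87.8 FPKM to 47.9, 47.4, 42.9, 53.5 and 37.2 FPKM (log2 difference -0.89, SE 0.10, adjusted p = 3.15e-05), and Polg2 (-0.68). All tumours were below all adjacent samples in these genes. Nrf1 (0.51), Gabpa (0.42) and Yy1 (0.34), which encode the factors whose motif cores were searched in the promoters, rose on the deposited scale and did not pass with medians subtracted (0.18, 0.08 and 0.01); Gabpb1, which encodes the partner of Gabpa in the ETS factor GABP (0.71, 0.38), the related coactivator gene Pprc1 (1.09, 0.76) and Ssbp1 (0.80, 0.47) rose on both. Of mitochondrial ribosomal proteins, another large set of nuclear genes for this organelle, 48 of 78 rose and 3 fell (median 0.29), and with medians subtracted 5 rose and 25 fell (median -0.04, against -0.75 for the OXPHOS members); cytosolic ribosomal proteins had 62 of 82 higher and 20 not past the threshold, and 6 higher and 8 lower with medians subtracted. Under quantile normalization 25 mitochondrial ribosomal proteins rose and 10 fell, and 75 cytosolic ones rose and 7 did not pass. The differences between these lists were not tested.

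**Figure D4:**
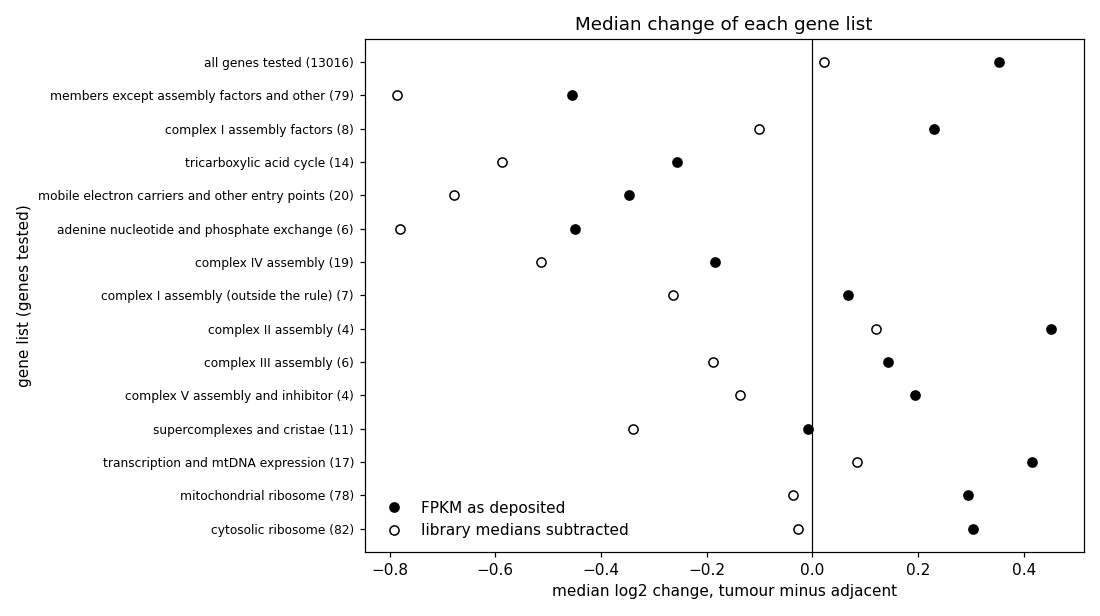
Median log2 difference (tumour minus adjacent, horizontal axis) of the 15 gene lists drawn (number of tested genes in brackets), with FPKM as deposited (filled) and with library medians subtracted (open). The 79 subunits of the complexes lie at -0.45 and -0.79, the farthest left of the lists drawn on both scales (single complexes and cell type markers are not drawn), beside the adenine nucleotide and phosphate carriers at -0.45 and -0.78, and the mitochondrial ribosome lies near all genes at 0.29 and -0.04.

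Of 93 members with a place in the annotation, 27 overlap another protein-coding gene. Overlaps were counted over whole gene spans, introns included. The library kit does not mark strand, so reads from shared bases cannot be told apart by strand. Among the genes with values in every library above, these are Atp5o, Cox4i1, Cox6a2, Ndufa4l2, Ndufb9, Ndufs1 and Uqcrb. The overlap was 32 bases for Ndufa4l2 (with Shmt2) and 9 bases for Ndufs1 (with Eef1b2). Cox4i1 shared 5986 bases, its whole span, with Gm20388, and Ndufb9 shared 3604 bases with Gm49356, both on the same strand. Cox6a2 shared 953 bases, its whole span, with Itgad, and Uqcrb 465 bases with Gm10767, both on the other strand. The part of these overlaps in the values was not tested. Atp5o has no single place in the annotation, and the first listed was used. Many OXPHOS genes have processed copies elsewhere in the genome, and the labels do not say how reads were shared among such copies.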

How the data were processed

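Poly(A) RNA of 5 tumour and 5 adjacent samples was sequenced on an Illumina HiSeq after library preparation with a TruSeq v2 kit, which does not mark strand, per the labels' protocols. The authors deposited 1 table of FPKM values per gene; per the submitters' processing notes, the build was mm10 and the tools included Salmon 0.8.2, RSEM 1.2.15, Cufflinks 2.2.1 and TopHat2 2.1.0. Which tool made the table is not stated there. FPKM hold no read counts, so the depth is unknown and no counting interval is given; 1 line of the table, a second header, was left out. Protein measurements of the series were not used here. The values of 1 member are not reported here, and it is counted in the totals.

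Groups were taken from the sample labels. Genes that averaged 1 FPKM or more over the 10 libraries were tested with limma 3.58.1 (R 4.3.3; trend and robust settings, two-sided) on log2(FPKM + 1), which understates the change of low genes, with Benjamini-Hochberg adjustment over all tested genes and a threshold of 0.05. The code was tested on simulated data. Isoform ratios were compared with an exact permutation test. Alternatives were other pseudocounts, filters and scalings, a replicate block, and fits without single libraries or without tumours 2 and 4. Values in every library are given, per complex, for the most abundant member, for at most 3 of those that rose most and 3 of those that fell most among genes past the threshold, and for a fixed set; each related list has at most its 2 strongest risers and 2 strongest fallers named, and other named genes were chosen after their values were seen. Members and lists were chosen with earlier results of these data known. Coordinates and transcript lengths come from GENCODE on GRCm38 (mm10), and promoter sequences from RefSeq on GRCm38.p6.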

Additional observations from a re-analysis of the deposited data

Results flagged for a closer look

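A library that stood apart from the other 4 of its group by Dixon's test was found in 3 of 88 groups checked. The 3 were groups of named members, and chance flags about 1 in 20. Cox7a1, the muscle isoform of subunit 7A, was at 28.08 FPKM in tumour 4 and between 9.43 and 14.76 FPKM in the other tumours, and its log2 difference was -2.47 without that library and -2.23 with it. Ndufa4l2 was at 6.7 FPKM in tumour 5 and between 2.27 and 2.54 FPKM in the other tumours. Without tumour 5 its difference was 0.79, still past the threshold. Cox4i2 was at 0.48 FPKM in tumour 1 and between 1.2 and 1.48 FPKM in the other tumours.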

How the results depend on the processing

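The count of members that fell stayed between 64 and 71 under the other settings except among transcripts of at most 1000 bases (62, of 78 tested) and with medians subtracted (79), and the members' median stayed below 0 in all (-0.752 with medians subtracted, -0.442 to -0.379 leaving out 1 library). Members that rose numbered 3 with a filter of 5 FPKM, 1 with 50 FPKM, 3 with medians subtracted and 2 under quantile normalization, and 6 to 8 leaving out 1 library (8 without tumour 2, which added Ndufaf4 and Ndufc2). Over all genes the numbers that rose and fell were 716 and 635 with a filter of 50 FPKM, 2678 and 884 among transcripts of at most 1000 bases, where fewer genes were tested in both, 4486 and 4329 with medians subtracted, 4759 and 3934 under quantile normalization, and 7051 to 7583 and 2321 to 2609 leaving out 1 library.

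Signs turned as follows. The complex I assembly factors had medians of -0.101 with medians subtracted and -0.122 under quantile normalization. In the same order Ndufaf1 had -0.032 and -0.121 and Ndufaf7 -0.022 and -0.054, while Ndufaf6 had -0.046 under quantile normalization, and Atp5g2 had -0.305 with medians subtracted and -0.001 without tumour 5 (up to 0.078 leaving out 1 library). Cox8b/Cox8a was -0.767 with a pseudocount of 0.1 and 0.665 with 5, where it passed, and Ndufa4l2/Ndufa4 was -0.47 with 5. Leaving out 1 library, the latter ranged from -0.138 (without tumour 5) to 0.279, Cox8b/Cox8a from 0.128 to 0.422 and Atp5g1/Atp5g3 from 0.084 to 0.16, the last past the threshold without tumour 1. Of 675 values of named members under alternatives, 651 kept their direction and call. Apart from the fits that tested fewer genes, the cause was not tested.

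Same-numbered samples deviated together with correlations of 0.023, 0.321, 0.022, 0.161 and 0.422. Adjacent 4 and 5 correlated best with their own number, and adjacent 1, 2 and 3 with other tumours. These values do not settle whether the samples are paired. The numbers were left out of the main fit because the source label gives the same mouse throughout. With the replicate block 71 members fell and 7 rose. For the ratios, an exact permutation test by sign flips within like-numbered samples cannot go below p = 0.0625, so Cox4i2/Cox4i1 (1.132), Cox6a2/Cox6a1 (1.148), Cox6b2/Cox6b1 (1.708), Cox7a1/Cox7a2 (-1.54) and Atp5g2/Atp5g3 (0.542) could not pass with the block.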

Other observations

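AA467197, the mouse gene known as Nmes1, encodes a small mitochondrial protein that is known to take the place of Ndufa4 in complex IV; it is outside the symbol rule and was chosen after its values were seen. It was at 378, 541, 424, 452 and 539 FPKM in adjacent samples 1 to 5 and at 39.6, 237, 43.3, 170.3 and 54.1 FPKM in tumours 1 to 5. All tumours lay below all adjacent samples, and tumours 2 and 4 were the highest of them (log2 difference -2.47, SE 0.48, adjusted p = 0.000853 by limma; -2.80 with medians subtracted). Ndufa4 was higher in all tumours than in all adjacent samples. Higd1c, a gene related to Higd1a, was listed at 0 in adjacent samples 1 to 4 and at 0.22 FPKM in adjacent 5, and at 3.06, 0.46, 2.1, 0.57 and 0.28 FPKM in tumours 1 to 5; its mean was below the filter and it was not tested.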
